A study of Dunaliella salina with 9 samples.

Results

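Red-high clusters are transcript clusters of the green alga Dunaliella salina whose counts were higher in every library from red light than in any library from blue or white light. They were chosen from the measured values: the mean over the 9 libraries had to be at least 10 CPM (counts scaled to a library total of 1000000), and the lowest of the 3 red libraries had to be at least 1.5 times the highest of the 6 blue and white libraries. The rule found 159 clusters among 10739 that reached the mean of 10 CPM and 115975 in all. The height of red above blue and above white is therefore how they were selected, and is given below as a description. For single clusters, p-values of red against white and of red against blue reuse the selecting values. Those p-values, and passes in other settings, likewise only describe the cluster. The rule did not use the length of the clusters. It did not fix where blue stands relative to white or how the libraries of a light vary, but it bears on both. Every blue and white library had to lie below red, so clusters high in blue or white relative to red were left out.

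D. salina is a unicellular, wall-less alga of salt lakes, known for the β-carotene that it stores under stress. Its chlorophylls absorb both red and blue light, whereas its carotenoids absorb mainly at the blue end. In green algae, phototropins and plant-type cryptochromes are receptors for blue light. In the related alga Chlamydomonas reinhardtii no phytochrome, the red-light receptor of land plants, is known, and an animal-like cryptochrome has been found to respond to red light as well as to blue.

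The study sequenced RNA from cells in mid-exponential phase that were moved to fresh medium under red light of 660 nm (3 samples), blue light of 450 nm (3 samples) or cool white light (3 samples). The photon flux was 50 µmol per square metre and second under each light, and per the growth protocol the cells came from white fluorescent lamps with nights. The series calls the samples biological, without saying whether each came from a culture of its own, so the p-values rest on a spread between samples that may be technical. The strain, the hours under each light and any batch are not given in the sources used here, and a batch and the light cannot be told apart. Because the identifiers are numbers of an assembly and matched none of the 16683 genes listed for the D. salina reference assembly, no cluster could be given a gene name, a function or a sequence.

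Totals ranged from 17674678 to 24526786 counts in red, from 17905778 to 19921151 in blue and from 16279167 to 19888088 in white. The white libraries stood apart by their spread. The correlation across the 10739 clusters (a description, since clusters depend on each other) of log2(CPM + 0.5) was 0.969 to 0.976 between red libraries, 0.942 to 0.965 between blue libraries and 0.760 to 0.917 between white libraries, lowest for white 1 with white 2. Where a test printed below for a single cluster changed sides of its threshold without white 1, the values without it are given.

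The largest separation was that of Cluster-15686.32860, with an effective length of 2209 bases. Effective lengths were worked out from counts, FPKM and library totals, and are not lengths of the assembled transcripts. It had 38.8, 41.0 and 24.8 CPM in red 1 to 3, 6.03, 5.63 and 2.14 CPM in blue 1 to 3, and 4.24 CPM in white 1 with no counts in white 2 and white 3. All red libraries were far above the others, and the lowest of them was 4.12 times the highest of the rest. The blue and white libraries overlapped. Despite the largest ratio, the level was low and the white libraries disagreed, and edgeR's quasi-likelihood test gave a log2 difference of 4.42 ± 1.49 (SE) for red against white (adjusted p = 0.0526) and 3.03 ± 1.38 for red against blue (adjusted p = 0.457). Without white 1 no counts were left in white, and the adjusted p values of edgeR were 0.000498 against white and 0.0222 against blue. The fitted log2 difference from white was then 12.37, which depends on the prior count and is no bound, and that from blue was 3.02.

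The cluster with the highest CPM in red was Cluster-15686.48116, with a short effective length of 229 bases. Its level was 3653, 3872 and 3974 CPM in red, 1935, 2052 and 2029 CPM in blue and 1904, 843 and 1214 CPM in white. The red libraries lay close together, and the white libraries spread more than the blue ones, with white 1 close to the blue level. It also had the highest level per length, at 17127 FPKM in red, 8532 FPKM in blue and 5693 FPKM in white on average. It rose in red against white by 1.27 ± 0.21 on the log2 scale (edgeR adjusted p = 0.00342), in the reported fit and in all 17 alternatives. Against blue the difference was 1.05 ± 0.21 (edgeR adjusted p = 0.0575), and 7 of 17 alternatives passed the threshold. Without white 1 it was 1.04 (edgeR adjusted p = 0.00994).

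**Figure D1:**
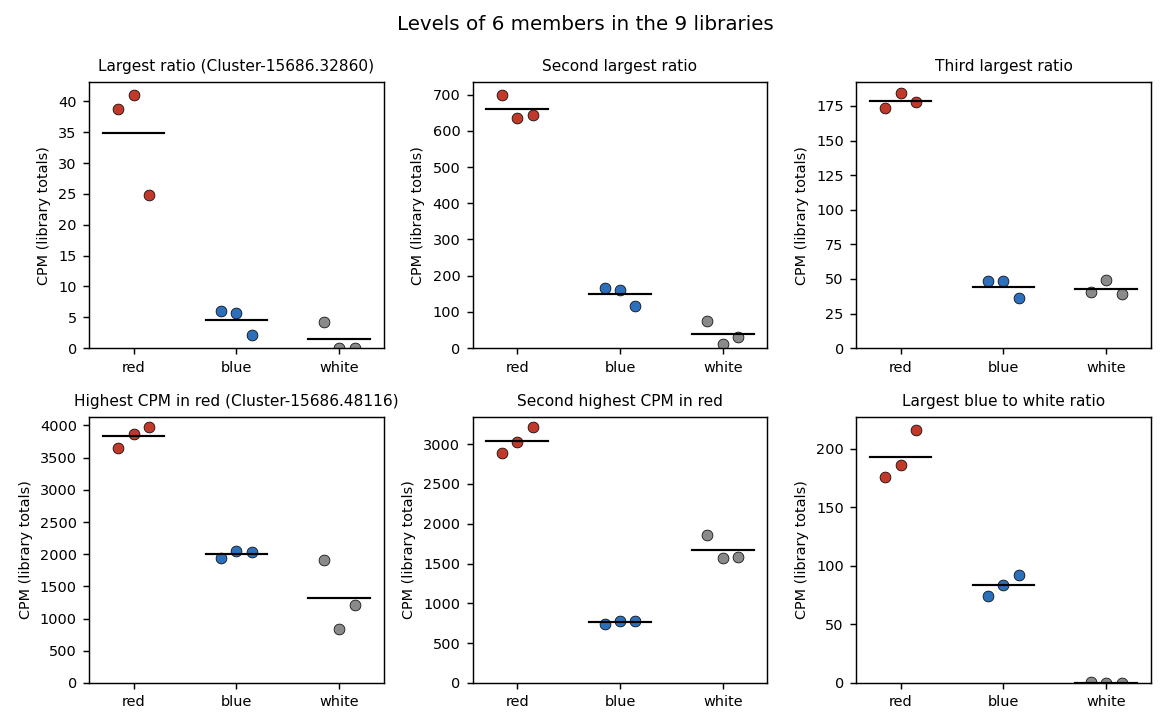
CPM (of library totals) in the 9 libraries for 6 red-high clusters, with 1 point per library (replicates 1 to 3 from left to right within a light) and a line at the mean of 3. The upper row shows the 3 with the largest ratio of the lowest red to the highest other library, the lower row the 2 with the highest CPM in red and the one with the largest ratio of blue to white; the last had 192.9 CPM in red, 83.2 in blue and 0.239 in white.

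The cluster with the second largest ratio had 699, 636 and 644 CPM in red, 166, 162 and 117 CPM in blue and 73.8, 10.5 and 30.5 CPM in white. Its 3 lights did not overlap, with blue between red and white. It was higher in red than in white in the reported fit and in all alternatives (log2 3.88 ± 0.58, edgeR adjusted p = 0.0022), and the difference of blue from white was near the threshold (1.61 ± 0.53, edgeR adjusted p = 0.0541). Without white 1, blue exceeded white by 2.39 and red exceeded blue by 2.26 on the log2 scale (edgeR adjusted p = 0.00447 and 0.0211), and the second of these had not passed with it (edgeR adjusted p = 0.102). The cluster with the third largest ratio had another pattern, with 173, 185 and 178 CPM in red, 48.6, 48.4 and 36.4 CPM in blue and 40.8, 49.2 and 39.0 CPM in white. Blue and white overlapped, and red stood alone. It passed in red against white (log2 1.74 ± 0.16, edgeR adjusted p = 0.00024) and in red against blue (2.12 ± 0.16, edgeR adjusted p = 0.0017) in the reported fit and all alternatives. This cluster and the one before it were picked for their ratio, so these passes and p-values only describe them.

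The remaining 2 of the 5 largest ratios were rarer clusters. One averaged 33.3 ± 3.65 CPM in red, 6.86 ± 3.50 CPM in blue and 0.962 ± 0.926 CPM in white (SD, n = 3). The other averaged 47.8 ± 1.48 CPM in red, 11.6 ± 5.17 CPM in blue and 3.32 ± 1.16 CPM in white (SD, n = 3). In both, every red library exceeded every blue library and every blue library exceeded every white one.

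Among the 159, the mean CPM in red ran from 15.7 to 3833 with a median of 71.7. Their means in blue ran from 4.60 to 2005 CPM (median 34.0) and those in white from 0 to 1671 CPM (median 12.8). By level in red, 26 were under 30 CPM, 70 between 30 and 100 CPM, and 63 at 100 CPM or more. Together they held 3.12% ± 0.025 of the counts in red, 1.36% ± 0.16 in blue and 0.875% ± 0.21 in white (SD, n = 3). The 5 with the highest CPM in red made up 32.6% to 34.8% of that sum in the red libraries, 30.6% to 35.2% in the blue and 41.4% to 49.0% in the white ones. Without these 5, the shares were 2.07% ± 0.018 in red, 0.918% ± 0.14 in blue and 0.488% ± 0.15 in white. That red came first in these sums follows from the rule. In bulk RNA a change in the make-up of the culture and a change in RNA per cell cannot be told apart.

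Most separations were modest. The ratio of the lowest red to the highest other library had a median of 1.73, reached 2 in 36 clusters and 3 in 4. The mean in red was 1.59 to 7.58 times that in blue (median 2.22), and at least 3 times in 26 clusters. Relative to white it was 1.71 to 808 times (median 4.45 in the 154 clusters with counts in white), and at least 10 times in 30 clusters. These ratios describe the values that chose the clusters. The limit of the rule was set by a blue library in 132 of the 159 clusters, of which by blue 1 in 101, and by white 1 in 21.

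The list has no natural edge at its threshold. The 3 clusters nearest to it inside had ratios of 1.503, 1.503 and 1.506, and the 3 nearest outside had 1.497, 1.497 and 1.499. There were 43 clusters with ratios from 1.5 to under 1.6 and 52 from 1.4 to under 1.5. One just inside had 355 to 395 CPM in red, 199 to 236 CPM in blue and 0.892 to 1.74 CPM in white. One just outside had 178 to 196 CPM in red, 46.5 to 119 CPM in blue and 46.1 to 58.4 CPM in white. The lowest mean over all libraries among the 159 was 10.2 CPM, and clusters that met the ratio but not the level reached 9.74 CPM.

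Each library was also left out of the choice and then looked at. Without red 1, 166 clusters met the rule in the other 8 libraries, and red 1 was above all blue and white libraries in 165 of them and at least 1.5 times above in 152. For red 2 the numbers were 162, 161 and 152, and for red 3 they were 198, 198 and 152. The red library left out was on the same side in nearly every cluster, with red 3 the one that most often fell short of 1.5 times. The other red libraries and the same blue and white libraries had made the choice, and red libraries resemble each other. These counts therefore describe agreement between libraries and lend the list no support. Without blue 1, 225 clusters were chosen, and 222 of them had every red library above blue 1, but only 161 by 1.5 times. Without white 1 there were 185, of which 182 had every red library above white 1 and 164 by 1.5 times. For blue and white too, the remaining libraries of the same light had taken part in the choice. No share over all clusters is set beside these counts.

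In the test across all 38376 clusters with enough counts, all 159 were tested. Of these, 136 were called higher in red against white (edgeR, adjusted p under 0.05), where 17.0% of all clusters tested and 16.9% of those of 10 CPM or more were. In red against blue 68 were called higher, where 1.02% of all clusters tested and 3.26% of those of 10 CPM or more were. As the rule used both contrasts, these counts describe how far a gap between ranges passes a test at this spread. The 68 were also higher against white, another 68 were higher against white alone, and 23 passed in neither. The call against blue depended on the libraries. When white was kept out of the fit, 156 were called. Without red 1, 2 or 3 the counts were 24, 22 and 19, without blue 1, 2 or 3 they were 37, 18 and 30, and without white 1, 2 or 3 they were 100, 111 and 36. In the reported fit and all 17 alternatives, 106 clusters were called higher in red against white and 17 in red against blue. The share of all clusters called is given for the reported fit only. Whether the moves between settings are particular to the list was not tested.

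The name "raised only by red light" holds for part of the list, since many of these clusters were also higher in blue than in white. In 97 of the 159, every blue library was above every white one, or 61.0%, against 44.7% of all clusters with a mean of 10 CPM or more. In 60 the libraries overlapped, and in 2 every blue library was below every white one, or 1.26% against 20.9%. Scaling matters here, because with library totals the median cluster of 10 CPM or more was itself higher in blue than in white by 0.36 on the log2 scale, and with TMM factors (which align the bulk of the clusters) it was at -0.04. After TMM scaling, 70 of the 159 had all blue libraries above all white ones (44.0%, against 27.5% of all clusters of 10 CPM or more) and 20 had them below (12.6% against 34.9%). Without white 1, and with library totals, the numbers were 127 above (79.9% against 56.4%) and 2 below (1.26% against 27.1%). Under each of these choices the share above was larger and the share below smaller than among all clusters of that level. But the rule used the same blue and white values and left out clusters high in white, which the comparison set keeps. Part of these gaps can thus follow from the choice, and no test was made. With blue in place of red in the rule, red was above white in 56.2% of the clusters chosen, against 39.3%.

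**Figure D2:**
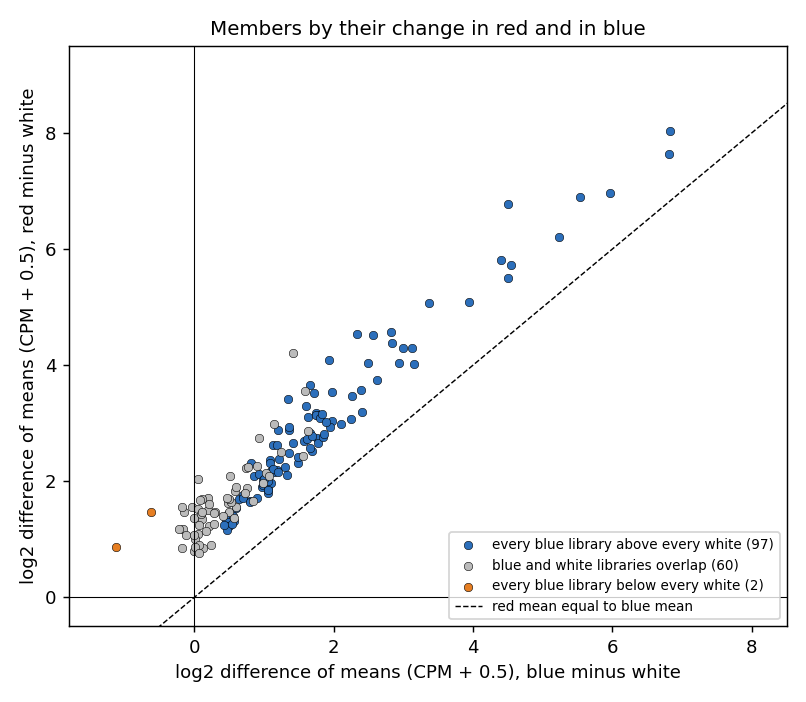
Log2 difference of group means of CPM + 0.5 (library totals), red minus white on the vertical axis and blue minus white on the horizontal axis, 1 point per red-high cluster, coloured by whether the 3 blue and 3 white libraries overlap. Blue lay above white without overlap in 97 clusters, overlapped with it in 60 and lay below it in 2; the dashed line marks equal red and blue means, both axes share the white libraries, and the rule keeps all points above the line.

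Blue against white was tested in the same fit. Among the 159, 39 rose in blue (24.5%, against 14.1% of all clusters tested and 15.2% of those of 10 CPM or more) and 8 fell (5.03%, against 14.7% and 28.8%). The median log2 difference was 0.70 over the 159, against 0.28 over all clusters tested and -0.07 over those of 10 CPM or more. The counts moved with the libraries and the scaling. Without white 1, 81 rose and 15 fell, and with library totals alone 64 rose and 2 fell. Without blue 1, 25 rose, and 4 to 5 fell without red 1, red 2, blue 2, blue 3 or white 3. In the reported fit and all alternatives, 23 were higher and 2 lower in blue than in white. For the settings other than the reported fit, no share over all clusters is given, so these moves are not read as particular to the list. As the rule left out clusters high in white, the shares of the reported fit are also a description.

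The 39 clusters that rose in blue also rose in red against white, which nearly follows from the rule, as red had to exceed blue. Of them, 16 passed in red against blue (41.0%, near the 42.8% of the whole list). Both counts only describe the choice. Their means were 19.6 to 767 CPM in red (median 81.8), 8.67 to 304 CPM in blue (median 32.2) and 0 to 77.3 CPM in white (median 3.54). In each of them the blue libraries lay between red and white without overlap. The cluster with the largest ratio of blue to white had 176, 186 and 216 CPM in red, 74.0, 83.2 and 92.3 CPM in blue and 0.33, 0.11 and 0.27 CPM in white. Its level was near the detection limit in white, since a count of 0 allows up to 0.151 (white 2) to 0.184 CPM (white 3) in a single library. It rose in blue against white by 8.12 ± 0.31 and in red against white by 9.45 ± 0.32 on the log2 scale (edgeR adjusted p = 5.46e-06 and 3.82e-06). It was higher in red than in blue by 1.32 ± 0.21 (edgeR adjusted p = 0.0265), a call made in 10 of 18 settings. As the cluster was picked for its ratio of blue to white from a list chosen on these values, the p-values only describe it.

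Near silence in white was a feature of 17 of the 159, whose white mean was under 2 CPM. These had 22.1 to 378 CPM in red (median 36.4) and 4.60 to 215 CPM in blue (median 10.9). Since they were picked for a low white mean, no count of tests against white is read from them. No counts at all were found in white for 5 clusters, and all 5 had counts in every blue and every red library. The most abundant of these had 69.0, 50.6 and 42.7 CPM in red and 26.0, 3.58 and 2.91 CPM in blue, so that blue 1 held most of the blue signal. The next had 35.5, 35.5 and 38.3 CPM in red and 17.4, 15.8 and 21.9 CPM in blue, with little spread in either light. Set against a floor of 3 counts over the whole white group, pooled counts of the 5 were at least 405-fold to at least 998-fold higher in red and at least 180-fold to at least 333-fold higher in blue. Without blue 1, the bound for blue fell to at least 59.2-fold in the most abundant of them, against at least 190-fold with it. Counting error is all that these bounds cover, since no molecular identifiers are named for the reads.

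Another 8 clusters were called lower in blue against white in the fit with TMM factors, most of them by a small difference. They were higher in red against white and against blue (all 8 in both tests) and averaged 53.5 to 3043 CPM in red, 13.5 to 763 CPM in blue and 21.1 to 1671 CPM in white. Red above both was set by the rule, and these 8 were also picked for a low blue level. Their calls in red thus only describe the choice. The extreme was the cluster with the second highest CPM in red, with an effective length of 938 bases. It had 2891, 3021 and 3216 CPM in red, 735, 773 and 780 CPM in blue and 1859, 1569 and 1584 CPM in white. The 3 lights were fully apart, with white between red and blue, and the spread within each was small. It rose in red against white by 0.57 ± 0.09 and fell in blue against white by 1.54 ± 0.09 on the log2 scale (edgeR adjusted p = 0.00266 and 2.49e-05), in the reported fit and in all alternatives. As the cluster with the smallest ratio of blue to white in the list, it was picked on these values, so the p-values only describe it. With library totals in place of TMM, the blue mean was under the white mean in 7 of the 8. By these totals the blue and white libraries overlapped in 6 of the 8, and every blue library was below every white one in 2. The ratio of blue to white means ran from 0.457 to 1.04, with a median of 0.898.

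The other 112 passed in neither direction between blue and white, which does not show that the levels were equal. Their ratio of blue to white means ran from 0.886 to 8.93 with a median of 1.77. The cluster with the fourth highest CPM in red was one of them, with 1165, 1281 and 1382 CPM in red, 499, 462 and 318 CPM in blue and 237, 374 and 285 CPM in white. It was higher in red than in white by 1.78 ± 0.25 and than in blue by 1.70 ± 0.25 on the log2 scale (edgeR adjusted p = 0.00176 and 0.0199). For the cluster with the fifth highest CPM in red, at 1001, 1087 and 1064 CPM in red, 564, 511 and 415 CPM in blue and 344, 653 and 503 CPM in white, neither difference passed (edgeR adjusted p = 0.0612 and 0.0828), although no red library overlapped with the others. Without white 1 both passed (edgeR adjusted p = 0.0472 and 0.0106). Over all 18 settings, however, red against white passed in only 5 and red against blue in 6.

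Another of the 112 had white libraries far apart. It was the cluster with the third highest CPM in red, and also had the longest effective length, 5760 bases. Its levels were 1368, 1324 and 1291 CPM in red, 846, 722 and 618 CPM in blue, and 229, 0 and 16.2 CPM in white. White 2 had no counts where white 1 had many. Neither red against white (edgeR adjusted p = 0.108) nor blue against white (edgeR adjusted p = 0.205) passed, although 3 and 2 of 17 alternatives did. Without white 1 the log2 differences from white were 7.02 in red and 6.05 in blue, and both passed (edgeR adjusted p = 0.0113 and 0.0179).

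The red libraries were close to each other over the list. The highest was 1.11 times the lowest at the median, against 1.39 times in blue and 2.21 times in white (143 clusters with counts in each white library). Among all clusters of 10 CPM or more with counts in each library of the light, these medians were 1.14 in red, 1.16 in blue and 1.54 in white. The rule uses the lowest red library, so clusters with a wide red spread were less easily chosen. It also holds the blue and white libraries below red, at levels where fewer counts can stand behind each value. The median of the white means was 12.8 CPM. The part of these low levels in the wider spreads of blue and white was not tested. The narrowest red spread was 67.8, 68.0 and 68.0 CPM, in a cluster with 40.8, 40.6 and 32.0 CPM in blue and 25.03, 3.62 and 5.70 CPM in white. The widest was 44.4, 51.6 and 26.8 CPM, in a cluster with 10.8, 7.42 and 9.78 CPM in blue and 5.93, 1.75 and 2.44 CPM in white.

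**Figure D3:**
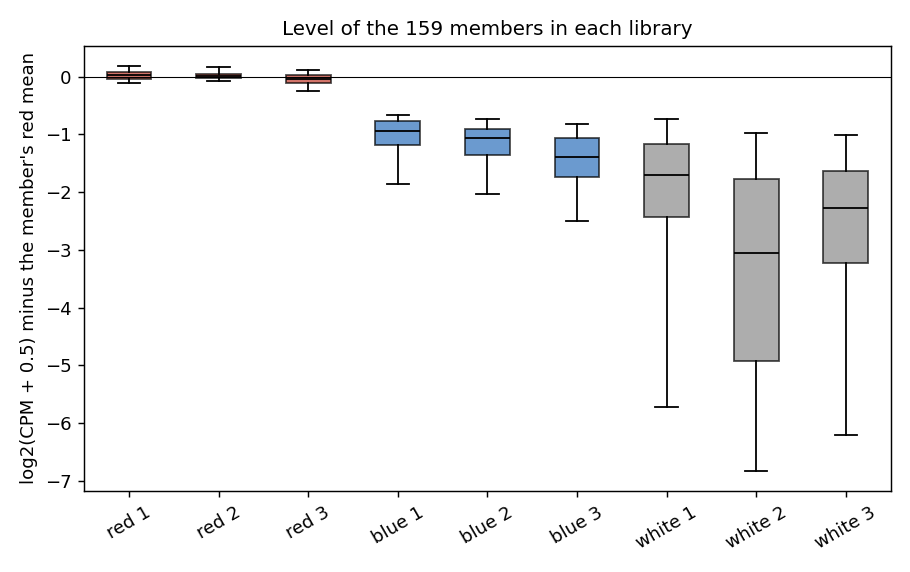
Distribution over the 159 red-high clusters of log2(CPM + 0.5) in each library minus the same cluster's mean over the red libraries; boxes show the quartiles, lines the median and whiskers the 5th and 95th percentiles. The medians were -0.94 in blue 1, -1.06 in blue 2 and -1.39 in blue 3, and -1.71 in white 1, -3.05 in white 2 and -2.28 in white 3.

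Within blue and within white the clusters of the list deviated together. Blue 3 was the lowest blue library in 132 of the 159 (83.0%), against 44.1% of all clusters of 10 CPM or more, and blue 1 was the highest in 114 (71.7% against 41.8%). In white, white 1 was the highest in 122 (76.7% against 56.7%) and white 2 the lowest in 115 (72.3% against 53.6%). Red leaned less, with red 1 the highest in 72 (45.3% against 35.9%) and red 3 the lowest in 83 (52.2% against 41.1%). Number 1 was thus most often the highest library in each light. Whether a batch ran across the lights by number was not tested. With TMM scaling, blue 3 was the lowest in 75.5% of the list (27.1% of all clusters of that level) and white 1 the highest in 64.2% (44.5%). The median deviation of blue 3 from the other blue libraries was -0.35 on the log2 scale over the list and -0.04 over all clusters of 10 CPM or more, and that of white 1 from the other white libraries was 0.72 over the list and 0.20 over all. These clusters leaned the same way also where the light was the same. The rule used these blue and white values and held them below red, which was not asked of the comparison set. Part of the lean can follow from the choice, and no test was made. Whether time of sampling, culture density or library preparation moved with these libraries was not tested, as the labels do not give them.

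**Figure D4:**
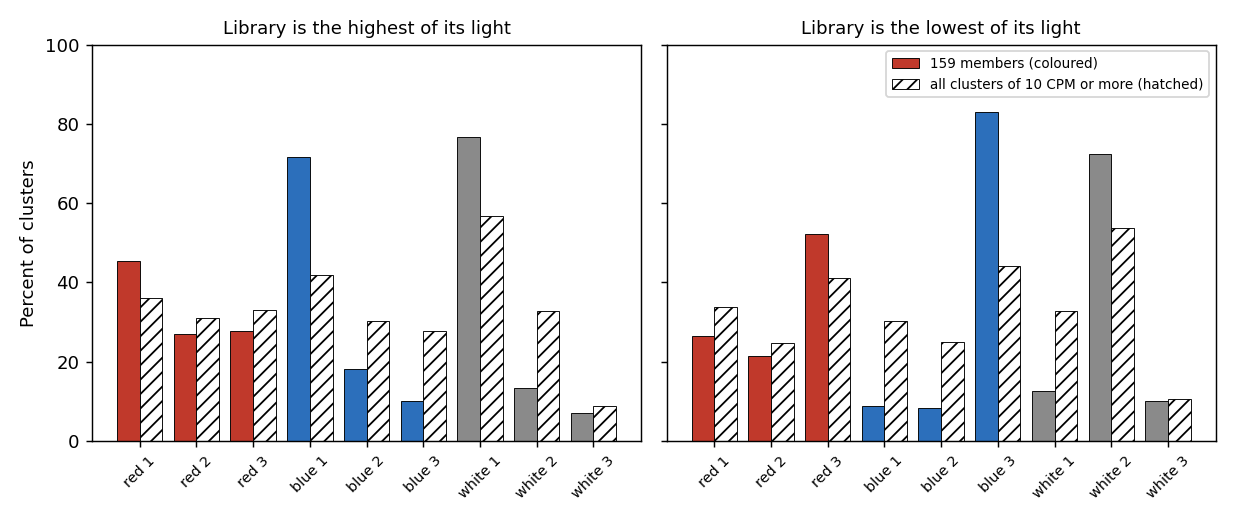
Percent of clusters in which a library was the highest (left) or the lowest (right) of its light, with no tie, for the 159 red-high clusters (coloured) and for all 10739 clusters with a mean of 10 CPM or more (hatched), by CPM of library totals. Blue 3 was the lowest blue library in 83.0% of the list against 44.1% of all, and white 1 the highest white library in 76.7% against 56.7%.

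In length the list resembled other clusters of its level. The effective length had a median of 2030 bases, with quartiles of 1285 and 3150, against 1859 bases (quartiles 1154 and 2962) for all clusters of 10 CPM or more. The shortest effective length was 115 bases, in a cluster with 19.2, 23.0 and 26.1 CPM in red. That cluster had 8.94, 9.64 and 11.8 CPM in blue and 11.9, 0.65 and 4.85 CPM in white. Whole counts in every library were found in 31 of the 159 (19.5%), against 31.8% of all clusters of 10 CPM or more. The rest had a count that was not whole in at least 1 library, and the part of such estimates in the differences was not tested.

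The same rule with blue in place of red gave 185 clusters, and its mirror image, clusters lower in every red library by 1.5 times, gave 161. For the blue-high clusters the ratio of the lowest blue to the highest other library had a median of 1.73, the same as for the red-high ones, but it reached 23.1, against 4.12. In 104 of the 185 (56.2%) every red library was above every white one, where 39.3% of all clusters of 10 CPM or more had red above white. Among the clusters lower in red, blue was below white in 97 of 161 (60.2%, against 20.9% of all clusters of 10 CPM or more) and above in 14 (8.70%, against 44.7%). These counts use library totals. Median effective lengths were 1922 bases for the blue-high clusters and 1596 bases for those lower in red. These lists share their libraries and were not tested against each other.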

How the data were processed

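Each of the 9 samples has 1 deposited table of 115975 clusters, with estimated counts and FPKM side by side, per the file headers. The deposited counts are unscaled expected counts, of which 21.6% to 33.9% per library are not whole. The FPKM values deposited by the authors were used for levels per length and for effective length (median over libraries with at least 50 counts). Assembly, aligner and counter are not given in the sources used here; the submitters' processing notes name DESeq 1.10.1 with no role.

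CPM values use library totals. Counts were rounded, filtered (filterByExpr, at least 10 counts and 15 in total) and given TMM factors. The quasi-likelihood test of edgeR 4.0.16 (R 4.3.3, robust) used all 9 libraries in 1 fit with light as the only term. Adjusted p-values are Benjamini-Hochberg over all 38376 tested clusters, threshold 0.05, and standard errors are the log2 difference over the square root of F. The code was tested on simulated data. No 2 libraries of a light agreed within sampling noise (chi-square per cluster 8.14 or more).

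Alternatives were RLE factors, library totals, DESeq2 1.42.0, limma-voom (limma 3.58.1), other filters, the groups compared alone, the replicate block and each library left out. Identifiers were named for 2 clusters only (largest ratio, highest CPM in red); others are described by rank. The members and the rules were chosen with earlier results of these data known.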

Additional observations from a re-analysis of the deposited data

How the results depend on the processing

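The 159 clusters became 375 at the lower ratio tried, 36 at a ratio of 2 and 31 among clusters with whole counts, by construction of these rules, and 162 to 225 with 1 library left out. Leaving out a library eases the ratio, so that rise too is largely built in. With TMM scaling 172 met the rule, 132 of them among the 159, and with RLE 166 and 130. The 136 called higher in red against white stayed within 1.5 times in all 17 alternatives (119 to 158; 108 to 153 with 1 library left out). The 68 called in red against blue became 156 in a fit of those groups and 27 with the replicate block, and 18 to 111 with 1 library left out. The 39 called higher in blue against white became 64 with library totals, and 25 to 81 with 1 library left out. The 8 called lower became 2 with library totals, 17 with DESeq2, 3 with no filter and 4 in a fit of the groups compared, and 4 to 15 with 1 library left out. For these shifts the cause was not tested, and the share of all clusters called is given for the reported fit only. The 97 clusters with blue above white became 70 with TMM and 69 with RLE (both added after seeing the data), and 97 to 127 with 1 blue or white library left out. By construction, leaving out a library cannot lower this count, so that range says nothing of its stability.

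The sources used here do not say whether equal replicate numbers share a batch. Deviations of same-numbered libraries from their group means correlated at 0.005 to 0.066, and those of other pairs across lights at -0.066 to 0.040. Red 3, blue 3 and white 2 each correlated more with a library of another number. These small values do not decide whether the numbers mark a pairing, which was not tested. No difference of the 2 named clusters reversed. Cluster-15686.32860 passed in red against white in 4 of 16 alternatives (adjusted p 0.000498 to 0.16) and in red against blue in 3 (0.00794 to 0.825); DESeq2 gave it no adjusted p. Cluster-15686.48116 passed in red against white in all 17 (3.63e-09 to 0.0212). Depending on the library, 0.122 to 0.184 CPM (3 counts) is the level that a value of 0 still allows.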

Other observations

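The ratio of the rule was also met by clusters below 10 CPM. Of 16567 clusters with a mean from 1 to 10 CPM, 220 (1.33%) had their lowest red library at least 1.5 times above every blue and white one, against 1.48% of the clusters of 10 CPM or more. From 0.5 to 1 CPM, 187 of 7959 (2.35%) met it, at levels where few counts stand behind each value. In 82 of the 220 the ratio reached 2. Every blue library was above every white one in 88 of them (40.0%, against 38.6% of all clusters of 1 to 10 CPM) and below in 2 (0.909% against 13.9%). No counts were found in white for 29 and in blue for 7. Above 100 CPM, 38 of 1422 clusters (2.67%) met the rule, and from 10 to 100 CPM 121 of 9317 (1.30%).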
